A study of Mus musculus with 24 samples.

Results

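The genes described here are 9 transcripts of the integrated stress response, Atf4, Ddit3, Atf3, Atf5, Trib3, Nupr1, Chac1, Asns and Stc2, followed in mouse embryonic fibroblasts (MEFs), connective tissue cells grown from mouse embryos. They were taken by gene name from the deposited gene table, as 9 of its 55487 genes, and each matched a gene with counts in all 24 libraries. Poly(A) RNA was sequenced from wild-type MEFs (WT) and from MEFs whose labels give an AMPK knockout (AMPK KO). AMPK, the AMP-activated protein kinase, is an energy sensor whose catalytic subunits are encoded by Prkaa1 and Prkaa2, and the study describes the knockout line as lacking both. Cells of each genotype received vehicle (DMSO), MK-8722, which activates AMPK directly, or torin1, an inhibitor of the kinase MTOR, which gave 6 groups of 4 libraries each. WT libraries came from passages 12 to 15 and AMPK KO libraries from passages 16 to 19, with 1 library of each passage in every group, so genotype and passage range cannot be told apart. According to the study's methods the MEFs of both genotypes were obtained from another laboratory. The sources name 1 line of each genotype, and nothing in the labels says that libraries of a passage came from separate cultures, so p-values measure the spread between these libraries. Concentrations and treatment times were not analysed here.

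In the integrated stress response, kinases that sense amino acid shortage, endoplasmic reticulum stress, heme shortage or double-stranded RNA phosphorylate the translation factor eIF2, which lowers protein synthesis in general while the mRNA of Atf4 is translated more. ATF4 is a basic leucine zipper (bZIP) factor that switches on genes of amino acid synthesis and uptake and of stress adaptation, and MTOR complex 1 is known to raise ATF4 through translation and stability of its mRNA. Ddit3 encodes CHOP, a bZIP partner tied to cell death under lasting stress, and Atf3 and Atf5 encode further bZIP factors of the pathway. Trib3 encodes a pseudokinase that feeds back on ATF4 and on AKT, and Nupr1 a small stress-induced chromatin protein. Chac1 encodes an enzyme that degrades glutathione, Asns the enzyme that makes asparagine, and Stc2 a secreted glycoprotein hormone induced by stress.

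ATF4 and CHOP dimers bind composite sites whose core is often written TGATGNAA. The windows from 250 bases before to 50 bases after each RefSeq transcription start (GRCm38.p6) were searched for these letters on both strands, where the other strand reads TTNCATCA, because members that move together invite a look at their promoters. All 9 genes had a window, and 5 of the 9 held the letters, Atf3, Chac1, Nupr1, Asns and Trib3. Among all genes with a window, 4.511% held them (1219 of 27025). A match is a description of letters, and no match says only that these letters are not in the windows of Atf4, Ddit3, Atf5 and Stc2. The 5 sequences are printed 5′ to 3′ on the strand of the gene with the matching letters in capitals, and all come from RefSeq.
Atf3, chr1:191183396-191183483, minus strand: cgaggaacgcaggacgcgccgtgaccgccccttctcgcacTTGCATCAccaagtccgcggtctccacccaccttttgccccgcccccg
Nupr1, chr7:126625533-126625620, minus strand: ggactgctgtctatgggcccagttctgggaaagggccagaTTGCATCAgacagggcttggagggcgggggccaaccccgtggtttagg
Chac1, chr2:119351009-119351096, plus strand: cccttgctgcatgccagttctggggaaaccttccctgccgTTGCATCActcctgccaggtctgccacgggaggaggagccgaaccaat
Asns, chr6:7693210-7693272, minus strand: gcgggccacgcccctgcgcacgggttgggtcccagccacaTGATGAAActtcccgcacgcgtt
Trib3, chr2:152344029-152344056, minus strand: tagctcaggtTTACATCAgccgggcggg

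The first matching base lay at -110 from the start in both Atf3 and Nupr1, at -193 in Chac1 and at -23 in Asns, and 14 bases into the transcript in Trib3. Atf3, Nupr1 and Chac1 carried the same 8 letters, TTGCATCA, while Trib3 had TTACATCA and Asns had TGATGAAA. The 5 genes with a match and the 4 without were not set against each other as groups.

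On GRCm38 (GENCODE annotation, all protein-coding) Atf4 lies on chromosome 15 from 80255184 to 80257541 and Chac1 on chromosome 2 from 119351229 to 119354381, both on the plus strand. Trib3 lies on chromosome 2 from 152337422 to 152344032, Nupr1 on chromosome 7 from 126623249 to 126630861, Asns on chromosome 6 from 7675169 to 7693254 and Stc2 on chromosome 11 from 31357307 to 31370074, all on the minus strand. Counts were taken over whole genes, and the positions of Atf3, Atf5 and Ddit3 are given with the genes that overlap them.

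Libraries held 26900240 to 34192685 estimated counts, and RNA integrity numbers lay between 9.7 and 10. After removal of genes with low counts 15828 genes were tested, among them all 9 members, with 9 to 27064 counts per library. Replicates of a group differed by more than sampling noise in all 36 pairs (chi-square per degree of freedom 3.52 to 26.5), so all libraries were counted separately. Among fibroblast markers, Vim (1466 to 5243 CPM, estimated counts scaled to the effective library size), Col1a1 (319 to 4843 CPM) and Fbn1 (136 to 508 CPM) were present in every library, whereas Lum was at 0 in 23 of 24 libraries and Dcn at most at 0.331 CPM. Pdgfrb lay at 40.6 to 119 CPM, Pdgfra at 0.133 to 6.49 CPM and Thy1 at 0.120 to 2.28 CPM over all libraries. Col1a2 was at 901 to 3287 CPM in WT and 10.2 to 47.3 CPM in AMPK KO, and Col3a1 at 31.4 to 182.5 CPM and 4.85 to 15.2 CPM. The 10 fibroblast markers summed to 7439 to 12325 CPM in WT and 2552 to 3478 CPM in AMPK KO libraries. Prkaa1 (65.6 to 84.5 CPM) and Prkaa2 (2.34 to 9.01 CPM) were measured in all 24 libraries, and transcript levels of a targeted gene do not check the genotype labels.

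Per unit of length, Atf4 was the most abundant member and Stc2 the least in WT cells with DMSO. Mean TPM, a share of all transcripts scaled for length, was 492 for Atf4 and 382 for Asns, and their ranges over 4 libraries overlapped (473 to 541 and 310.1 to 489). Atf5 at 190.3 and Nupr1 at 137 followed, again with overlapping ranges. Trib3 at 67.5, Chac1 at 50.3 and Ddit3 at 49.0 could not be ordered within their spread, since Trib3 ranged from 54.1 to 103, Chac1 from 45.5 to 57.4 and Ddit3 from 39.98 to 66.6. Atf3 at 17.6 and Stc2 at 2.52 were lower, each without overlap with its neighbour.

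All further values are CPM, which compare 1 gene between libraries. For 7 of the 9 genes the highest group mean was that of AMPK KO cells with MK-8722. The exceptions were Ddit3, highest in WT cells with MK-8722, and Asns, highest in WT cells with DMSO. Every lowest group mean was that of a torin1 group. From the highest to the lowest group mean, levels spanned 69.0-fold in Trib3, 38.7-fold in Chac1, 27.98-fold in Stc2, 8.38-fold in Atf5, 6.32-fold in Ddit3, 6.07-fold in Atf3, 5.52-fold in Atf4, 4.97-fold in Asns and 3.05-fold in Nupr1. These spans describe group means and were not tested as such.

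**Figure D1:**
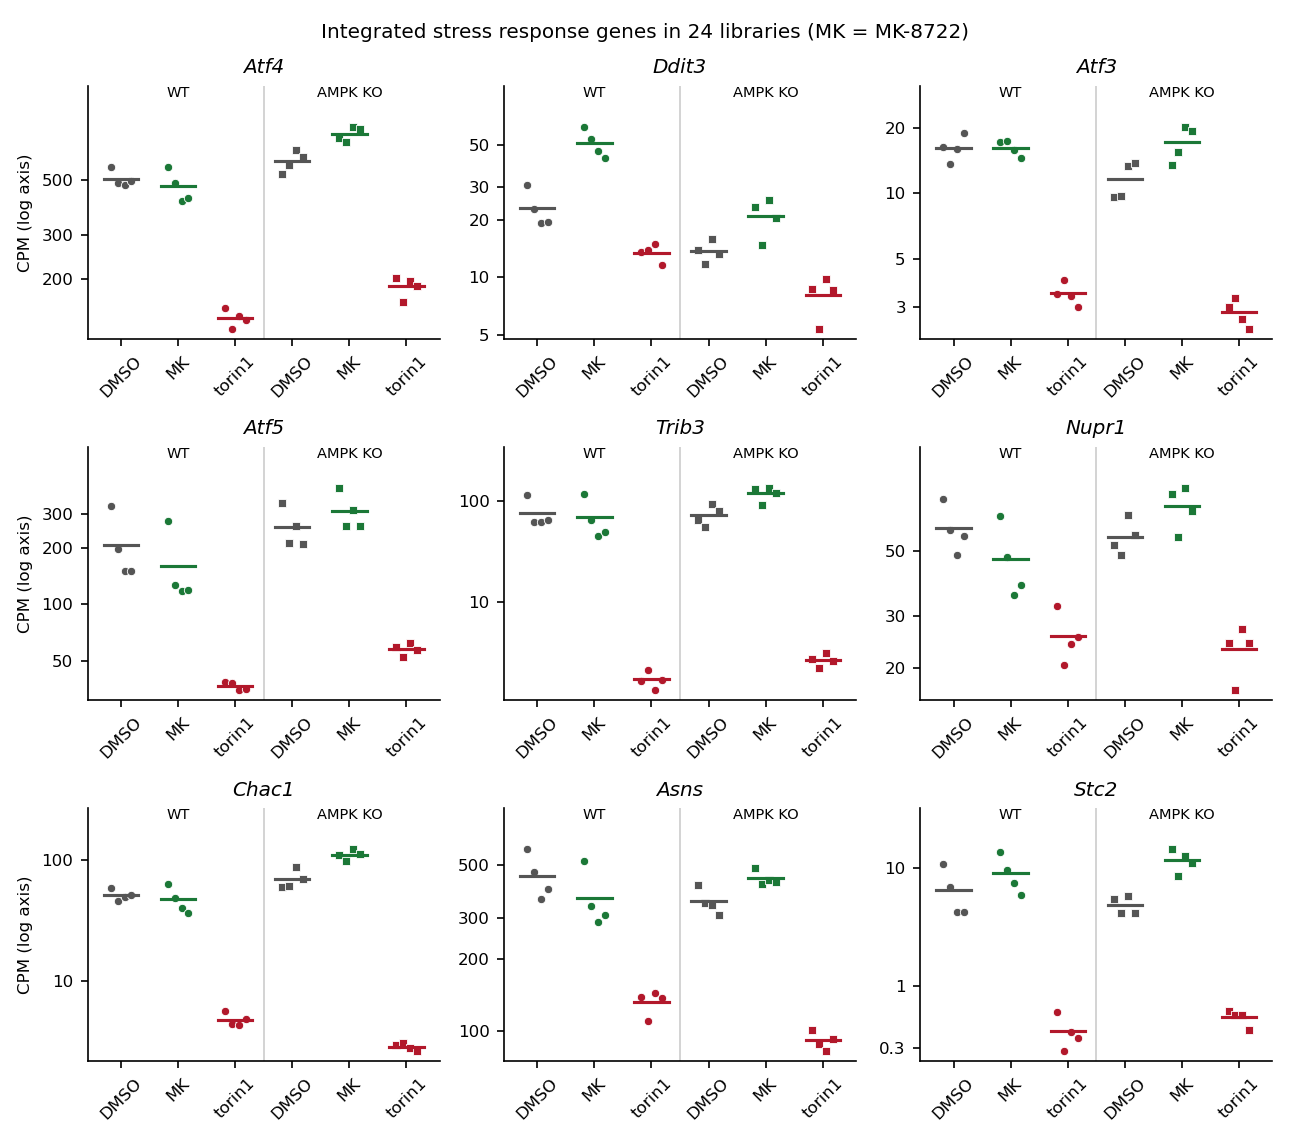
CPM on a log axis for the 9 genes in 24 libraries. Points are libraries in order of passage, circles WT and squares AMPK KO, and lines are means of 4 libraries. Torin1 libraries lie below all DMSO and MK-8722 libraries of their genotype for every gene. Over the groups of both genotypes together, the highest and lowest group mean differ from 3.05-fold (Nupr1) to 69.0-fold (Trib3).

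The first comparison asked what MTOR inhibition did to these transcripts in cells with AMPK. In WT MEFs all 9 members fell with torin1, beside 21.1% of all genes tested that were called lower. A gene was called when the edgeR quasi-likelihood test gave a Benjamini-Hochberg adjusted p under 0.05 over the 15828 genes tested and a fold change of at least 1.2. The members' median log2 fold change was -2.23, beside 0.04 over all genes tested. Torin1 and DMSO libraries did not overlap for any of the 9, and in 24.7% of all genes tested every torin1 library likewise lay below every DMSO library. Since each library pools the RNA of many cells, fewer cells carrying a transcript and less of it per cell cannot be told apart. CPM are shares of a library, so a change in total RNA per cell would not show.

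Atf4 itself was at 564, 486, 478 and 497 CPM in the 4 WT libraries with DMSO, given here and below in order of passage. With torin1 it was at 153, 126, 142 and 137 CPM. The highest torin1 library thus lay well under the lowest DMSO library, and the log2 fold change was -1.86 (SE 0.094, edgeR adjusted p = 1.00e-13). In AMPK KO cells Atf4 was at 527, 574, 664 and 622 CPM with DMSO and at 202, 161, 196 and 187 CPM with torin1, again a wide gap (log2 fold change -1.68, edgeR adjusted p = 1.20e-12).

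Trib3, the feedback pseudokinase, had the largest fall of the 9 in both genotypes, and only 2 of the 15828 genes tested had a lower log2 fold change in either. It was at 114, 61.7, 61.9 and 65.0 CPM with DMSO in WT and at 1.66, 2.13, 1.36 and 1.70 CPM with torin1 (log2 fold change -5.47, SE 0.34, edgeR adjusted p = 2.33e-12). In AMPK KO it was at 63.9, 54.3, 93.2 and 78.1 CPM with DMSO and at 2.73, 2.22, 3.16 and 2.59 CPM with torin1 (log2 fold change -4.76, SE 0.31, edgeR adjusted p = 1.31e-11). Even so, 46 to 67 counts per WT library and 74 to 105 per AMPK KO library remained, so Trib3 was measured and not absent with torin1.

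Chac1, the glutathione-degrading enzyme, was at 58.3, 46.2, 49.1 and 51.2 CPM in WT with DMSO and at 5.66, 4.38, 4.31 and 4.82 CPM with torin1 (log2 fold change -3.42, SE 0.16, edgeR adjusted p = 3.67e-14). In AMPK KO it stood at 59.9, 61.3, 88.4 and 70.2 CPM with DMSO and at 2.95, 3.06, 2.79 and 2.66 CPM with torin1 (log2 fold change -4.61, SE 0.17, edgeR adjusted p = 1.92e-15). The AMPK KO libraries thus started higher and ended lower than the WT libraries, without overlap at either level.

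Stc2, the secreted glycoprotein, was the least abundant member. WT libraries held 10.7, 6.95, 4.25 and 4.21 CPM with DMSO and 0.608, 0.286, 0.414 and 0.363 CPM with torin1 (log2 fold change -3.96, SE 0.36, edgeR adjusted p = 1.44e-09). AMPK KO libraries held 5.43, 4.14, 5.76 and 4.15 CPM with DMSO and 0.614, 0.570, 0.571 and 0.427 CPM with torin1 (log2 fold change -3.15, SE 0.34, edgeR adjusted p = 4.22e-08). All torin1 libraries lay far under all DMSO libraries, but the torin1 levels rest on 9 to 20 counts per library, which makes them the least precise of the set.

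The bZIP factors Atf5 and Atf3 and the enzyme Asns changed by intermediate amounts in WT cells with torin1. Atf5 fell from 149 to 332 CPM with DMSO to 35.5 to 39.0 CPM (log2 fold change -2.48, edgeR adjusted p = 2.67e-08), Atf3 from 13.6 to 18.9 CPM to 3.01 to 3.998 CPM (-2.23, edgeR adjusted p = 1.05e-11) and Asns from 359 to 585 CPM to 110.2 to 144 CPM (-1.77, edgeR adjusted p = 8.22e-10). Nupr1 fell from 48.2 to 75.1 CPM to 20.5 to 32.4 CPM (-1.21, edgeR adjusted p = 3.81e-06). The smallest fall was that of Ddit3, the CHOP gene, from 30.8, 22.8, 19.4 and 19.7 CPM to 13.5, 14.0, 14.9 and 11.6 CPM (-0.78, SE 0.17, edgeR adjusted p = 0.000474).

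In AMPK KO MEFs all 9 members fell with torin1 as well, beside 17.6% of all genes tested that were called lower, and the groups again did not overlap for any member, as in 23.7% of all genes tested in that direction. The median log2 fold change of the 9 was -2.04, beside 0.06 over all genes tested. Atf5 (-2.14), Atf3 (-2.04), Asns (-1.95) and Nupr1 (-1.27) fell by amounts within 0.34 of those in WT, with edgeR adjusted p of 2.66e-06 or less. Ddit3 again changed least, from 13.9, 11.7, 15.9 and 13.2 CPM with DMSO to 8.63, 5.37, 9.77 and 8.61 CPM with torin1 (log2 fold change -0.76, SE 0.19, edgeR adjusted p = 0.00123).

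Within each passage the ratio of torin1 to DMSO was under 1 for every member in all 4 passages of both genotypes. It lay between 0.0146 and 0.0344 for Trib3 in WT and between 0.0316 and 0.0499 for Chac1 in AMPK KO, and it reached its highest value for Ddit3, at 0.769 in WT and 0.650 in AMPK KO. The 9 genes were read in the same libraries, and the share of all genes with such ratios was not computed. Leaving out any single library, or any of the other settings tried, left all 9 calls in place in both genotypes. With torin1 the 3 endothelial markers summed to 1.84 to 3.81 CPM in WT against 0.807 to 1.21 CPM with DMSO, and to 2.13 to 3.07 CPM in AMPK KO against 1.54 to 2.07 CPM. The epithelial markers Epcam, Cdh1 and Krt14 summed to 5.35 to 6.45 CPM in AMPK KO with torin1 against 3.04 to 4.55 CPM with DMSO, and in WT the ranges overlapped. The part of these low levels in the falls was not tested.

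Whether the response to torin1 differed between genotypes was tested as an interaction, in which a value under 0 means a lower ratio of torin1 to DMSO in AMPK KO. Chac1 was called, beside 2.92% of all genes tested that were called in that direction, with an interaction of -1.19 on the log2 scale (SE 0.24, edgeR adjusted p = 0.00338). Its fitted ratio to DMSO was 0.0410 in AMPK KO and 0.0935 in WT, and this call held without any single library. None of the 8 other members was called in either direction, beside 4.15% of all genes tested called higher. An unadjusted p under 0.05 was likewise reached by Chac1 alone of the 9, beside 3784 of the 15828 genes tested. Stc2 (0.81, edgeR adjusted p = 0.413) and Trib3 (0.71, edgeR adjusted p = 0.440) had the next largest interactions, both with standard errors above 0.5, and Ddit3 the smallest at 0.02, whose sign changed under 7 of the alternative settings and without some single libraries. With passage as a term Stc2 was called as well (0.79, edgeR adjusted p = 0.0372).

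**Figure D2:**
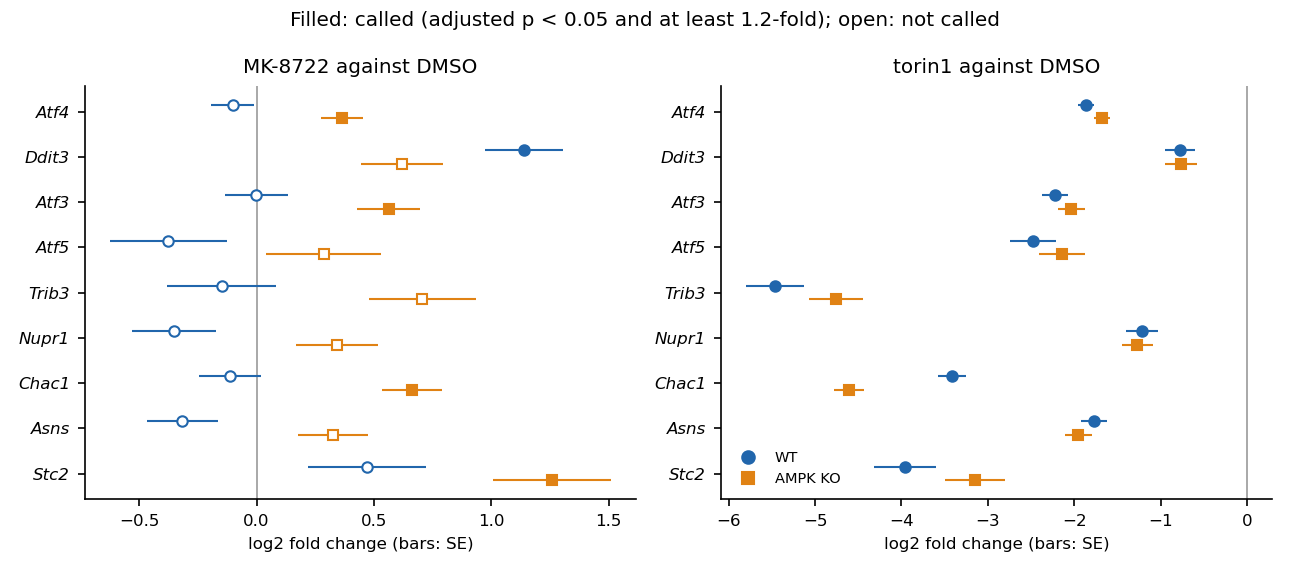
Log2 fold changes of the 9 genes with MK-8722 (left) and torin1 (right) against DMSO, circles WT and squares AMPK KO, with standard errors as bars (n = 4 libraries per group). Filled symbols passed the test, which all 18 values with torin1 did, while with MK-8722 only Ddit3 did in WT and Atf4, Atf3, Chac1 and Stc2 did in AMPK KO.

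The AMPK activator was compared with DMSO next, first in cells with AMPK. In WT MEFs 1 member, Ddit3, rose with MK-8722, beside 10.0% of all genes tested that were called higher, and no member was called lower by edgeR or DESeq2, beside 5.66% of all genes called lower by edgeR. Asns (-0.32), with an unadjusted p under 0.05, came closest. Ddit3 was at 61.7, 53.8, 46.5 and 42.7 CPM with MK-8722 against 30.8, 22.8, 19.4 and 19.7 CPM with DMSO. Each treated library lay above all 4 vehicle libraries, as was so in 13.7% of all genes tested, and the log2 fold change was 1.14 (SE 0.17, edgeR adjusted p = 1.41e-05). This was the highest group mean of Ddit3 in the series, 51.2 ± 8.41 CPM (SD, n = 4). The ratio within passages was 2.01 to 2.40 in all 4 passages, and the call held without any single library and under all settings tried.

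Atf4, the factor that acts upstream of Ddit3, was at 564, 486, 413 and 423 CPM with MK-8722, which overlapped its 4 DMSO libraries, and its log2 fold change was -0.10 (95% interval -0.28 to 0.07, edgeR adjusted p = 0.442). Chac1 at 63.7, 48.8, 40.01 and 36.8 CPM and Trib3 at 115, 64.0, 44.6 and 49.3 CPM likewise spread across their DMSO levels (log2 fold changes -0.11 and -0.15, edgeR adjusted p = 0.578 and 0.692). Atf3 differed by 0.00 (95% interval -0.26 to 0.26). The median of the 9 was -0.11, beside -0.00 over all genes tested. Intervals this wide do not show that levels were the same.

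Asns, Atf5 and Nupr1 were below their DMSO level in WT cells with MK-8722 in 4 of 4 passages, at ratios of 0.718 to 0.887, 0.644 to 0.83 and 0.683 to 0.873, and Stc2 was above it in 4 of 4, at 1.26 to 1.75. None of these was called over all libraries (edgeR adjusted p of 0.124 for Asns, 0.289 for Atf5, 0.151 for Nupr1 and 0.175 for Stc2). The share of all genes with 1 direction in every passage was not computed. With passage as a term in the model 5 members were called, Ddit3 and Stc2 (0.50) higher and Asns (-0.33), Atf5 (-0.39) and Nupr1 (-0.36) lower, beside 2907 of the 15828 genes tested against 2483 without that term. Without passage as a term the calls changed most with WT MK-8722 replicate 2, a library of passage 12. Without it Asns (-0.54), Atf5 (-0.77), Nupr1 (-0.56) and Trib3 (-0.53) were called lower, with edgeR adjusted p between 0.00214 and 0.0465. Asns was also called lower without WT DMSO replicate 1 (-0.43, edgeR adjusted p = 0.0433). Without WT DMSO replicate 4, also of passage 12, Stc2 was called higher (0.83, edgeR adjusted p = 0.0109). The summed level of 3 endothelial markers was 4.36 to 8.49 CPM with MK-8722 and 0.807 to 1.21 CPM with DMSO in WT, nearly all of it Kdr, while Cdh5 did not exceed 0.0952 and Pecam1 0.183 CPM in WT libraries. The 4 leukocyte markers summed to 3.14 to 4.67 CPM and 1.98 to 2.85 CPM, most of it Cd68 (1.79 to 4.09 CPM over the WT libraries). Csf1r did not exceed 0.584 and Ptprc 0.0351 CPM in WT libraries, and Adgre1 was at 0 throughout. The part of either list in the change of Ddit3 was not tested.

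In AMPK KO MEFs 4 members rose with MK-8722, beside 0.866% of all genes tested that were called higher. All 9 log2 fold changes were above 0, between 0.29 and 1.26, with a median of 0.56 beside 0.00 over all genes tested. No gene among the 9 fell. In 4 of them, Atf4, Chac1, Stc2 and Asns, every MK-8722 library lay above every DMSO library, beside 6.10% of all genes tested.

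Stc2 rose the most, from 5.43, 4.14, 5.76 and 4.15 CPM with DMSO to 14.4, 8.59, 12.7 and 10.99 CPM with MK-8722, without overlap (log2 fold change 1.26, SE 0.25, edgeR adjusted p = 0.00807). Chac1 rose from 59.9, 61.3, 88.4 and 70.2 CPM to 109, 97.6, 123 and 113 CPM, again without overlap (0.66, SE 0.13, edgeR adjusted p = 0.00653). Both calls held without any single library. Atf4 was at 741, 714, 818 and 802 CPM against 527, 574, 664 and 622 CPM with DMSO, also without overlap (0.36, SE 0.090, edgeR adjusted p = 0.0301). Atf3, at 13.5, 15.4, 20.2 and 19.5 CPM against 9.58, 9.71, 13.3 and 13.8 CPM, rose within passages while the groups overlapped (0.56, SE 0.13, edgeR adjusted p = 0.0250).

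The rises of Atf4 and Atf3 sat close to the threshold. Atf4 was no longer called without any one of 5 libraries, AMPK KO MK-8722 replicates 1 and 4 and AMPK KO DMSO replicates 1, 2 and 3 (edgeR adjusted p 0.0603 to 0.0974), and Atf3 without any one of 4 of them, all but AMPK KO DMSO replicate 1 (0.0808 to 0.0987).

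Ddit3, the 1 member called in WT, was at 23.4, 14.7, 25.6 and 20.4 CPM with MK-8722 in AMPK KO against 13.9, 11.7, 15.9 and 13.2 CPM with DMSO. Its log2 fold change of 0.62 missed the threshold (SE 0.17, edgeR adjusted p = 0.0558), which it passed without AMPK KO MK-8722 replicate 3 (0.75, edgeR adjusted p = 0.0226) and with DESeq2 (0.62, adjusted p = 0.0136). Trib3 was at 130.5, 90.0, 133 and 119 CPM against 63.9, 54.3, 93.2 and 78.1 CPM (0.71, SE 0.23, edgeR adjusted p = 0.0979). Asns (0.33), Nupr1 (0.34) and Atf5 (0.29) had edgeR adjusted p of 0.273, 0.338 and 0.627. The Asns groups nevertheless did not overlap, with 415 to 489 CPM against 307 to 412 CPM.

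Within passages the ratio of MK-8722 to DMSO was above 1 for all 9 genes in 4 of 4 passages of AMPK KO. It ranged from 1.21 to 1.24 for Atf5, 1.23 to 1.41 for Atf4, 1.26 to 1.68 for Ddit3, 1.43 to 2.04 for Trib3 and 2.07 to 2.65 for Stc2. These ratios share libraries between genes and are not separate observations, and the share over all genes was not computed. With passage as a term 8 members were called, all except Atf5, beside 729 genes over the whole table against 247 without it.

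**Figure D3:**
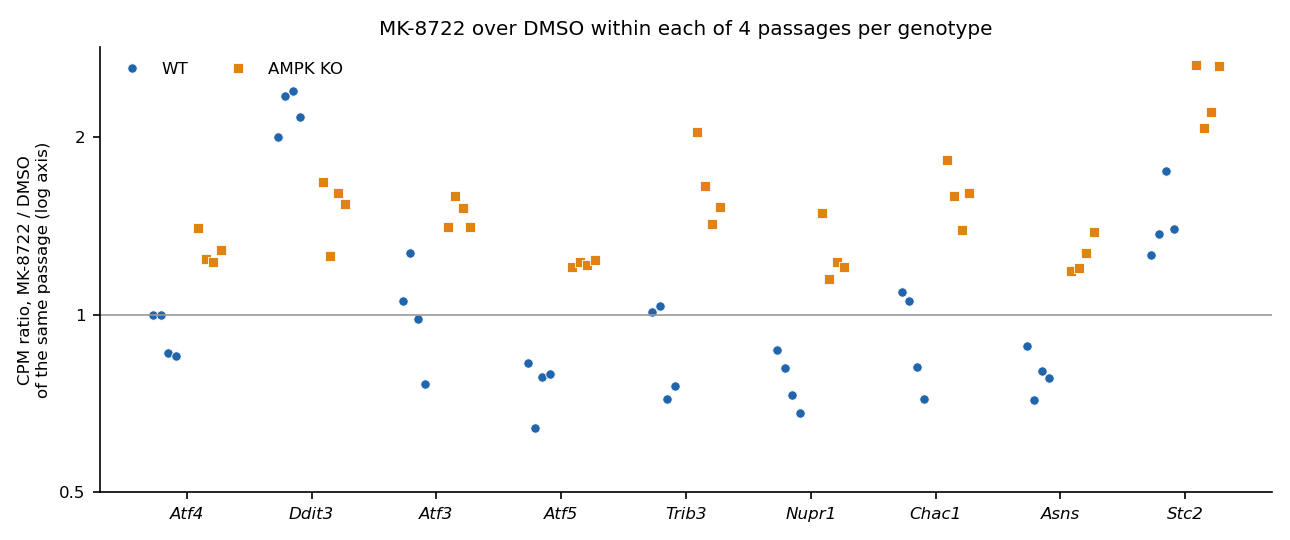
Ratio of the CPM with MK-8722 to the CPM with DMSO of the same passage on a log axis, with 1 point per passage (4 per genotype and gene), circles WT and squares AMPK KO. All 36 AMPK KO points lie above 1, and in WT all points of Ddit3 (2.01 to 2.40) and Stc2 (1.26 to 1.75) do, while Asns, Atf5 and Nupr1 lie below it. Points of different genes come from the same libraries, and the share over all genes was not computed.

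Whether MK-8722 acted unequally in the 2 genotypes was tested as an interaction, which is above 0 where the ratio to DMSO was higher in AMPK KO. Atf4 (0.47, SE 0.13, edgeR adjusted p = 0.0133), Chac1 (0.78, SE 0.18, edgeR adjusted p = 0.00488), Atf3 (0.56, SE 0.19, edgeR adjusted p = 0.0418) and Asns (0.64, SE 0.21, edgeR adjusted p = 0.0395) were called, beside 5.12% of all genes tested called in that direction. Of the 9 interactions 8 were above 0, with a median of 0.66 beside 0.00 over all genes tested. Ddit3 pointed the other way at -0.52 and was not called (edgeR adjusted p = 0.147). Trib3 (0.86), Stc2 (0.79), Nupr1 (0.69) and Atf5 (0.66) had larger interactions than Atf4 but also larger errors (0.25 to 0.35), with edgeR adjusted p between 0.0585 and 0.212. The calls of Asns and Atf3 were lost without any one of 10 and 9 of the 16 libraries, WT and AMPK KO, treated and vehicle alike, with edgeR adjusted p of at most 0.104, whereas those of Atf4 and Chac1 held. Without WT MK-8722 replicate 2 the calls numbered 8, all members except Ddit3, and without WT DMSO replicate 4 Ddit3 was called (-0.69, edgeR adjusted p = 0.0437). With passage as a term all 9 were called, Ddit3 below 0 and the others above, beside 2785 of all genes tested against 2023 without it.

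Both drugs were also set against each other, in a comparison that shares its torin1 and MK-8722 libraries with the values above. Each difference follows from the changes of both drugs against DMSO, so these calls are not separate observations. In WT all 9 members were lower with torin1 than with MK-8722, beside 21.2% of all genes tested, and in AMPK KO all 9 were lower as well, beside 18.7%. Ddit3 differed by -1.92 in WT and -1.38 in AMPK KO, against -0.78 and -0.76 for torin1 against DMSO. Chac1 reached -5.27 in AMPK KO and -3.30 in WT, and Trib3 -5.46 and -5.32.

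Genotypes were then compared within each treatment, where genotype is not separable from passage range or from the 2 lines used, and where 56.9% of all genes tested were called with DMSO. With DMSO 4 members differed. Ddit3 was lower in AMPK KO, at 11.7 to 15.9 CPM against 19.4 to 30.8 CPM (log2 fold change -0.76, SE 0.17, edgeR adjusted p = 0.000455), as were Atf3 (-0.49, edgeR adjusted p = 0.00265) and Asns (-0.36, edgeR adjusted p = 0.0354). Chac1 was higher, at 59.9 to 88.4 CPM against 46.2 to 58.3 CPM (0.45, edgeR adjusted p = 0.00374). The groups of Ddit3 and Chac1 did not overlap, and those of the 7 other members did, beside 64.0% of all genes tested without overlap. Atf4 passed the p threshold but not the fold threshold (0.24, 1.18-fold, edgeR adjusted p = 0.0229). The call of Asns was lost without any one of 4 libraries, WT DMSO replicate 4 and AMPK KO DMSO replicates 1, 2 and 4, with edgeR adjusted p up to 0.177. Without WT DMSO replicate 4 Atf5 was called higher in AMPK KO (0.61, edgeR adjusted p = 0.0228), and without WT DMSO replicate 1 or 3 Stc2 was called lower (-0.63, edgeR adjusted p of at most 0.0365).

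With MK-8722 6 members differed between genotypes, beside 58.9% of all genes tested. Chac1 was 2.34-fold higher in AMPK KO (log2 fold change 1.23, SE 0.13, edgeR adjusted p = 1.05e-08), Atf5 1.95-fold (0.97, edgeR adjusted p = 0.00139), Trib3 1.73-fold (0.79, edgeR adjusted p = 0.00377), Atf4 1.63-fold (0.70, edgeR adjusted p = 2.25e-07) and Nupr1 1.52-fold (0.60, edgeR adjusted p = 0.00410). Ddit3 was at 0.411 of the WT level (-1.28, SE 0.17, edgeR adjusted p = 2.74e-07). Its WT libraries held 42.7 to 61.7 CPM and its AMPK KO libraries 14.7 to 25.6 CPM, so the difference in this bZIP gene ran opposite to those of the 5 others called. Atf4, Chac1 and Ddit3 showed no overlap between genotypes, beside 63.7% of all genes tested.

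With torin1 5 members differed, beside 54.6% of all genes tested. Atf4 (0.42, edgeR adjusted p = 0.000272) and Atf5 (0.64, edgeR adjusted p = 0.0360) were higher in AMPK KO, and Ddit3 (-0.74), Chac1 (-0.74) and Asns (-0.54) were lower, with edgeR adjusted p of 0.00115, 0.00303 and 0.00320. The call of Atf5 was lost without any one of the 8 libraries compared (edgeR adjusted p 0.0575 to 0.111), although its groups, 35.5 to 39.0 CPM in WT and 52.5 to 62.9 CPM in AMPK KO, did not overlap, which held for 6 members and 61.8% of all genes tested. Ddit3 was thus lower in AMPK KO under all 3 treatments, and Chac1 was higher with DMSO and MK-8722 and lower with torin1. The fibroblast marker sum also differed between the genotypes, as given above, and the 3 epithelial markers summed to 1.13 to 2.05 CPM in WT and 3.04 to 4.55 CPM in AMPK KO with DMSO. Krt14, one of the 3, was at 0 in 12 of 24 libraries. The part of either list in these differences was not tested.

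Passage was examined because each group held 1 library of each passage. In WT 3 members fell with passage, Stc2 (-1.26 over the 3 passages from 12 to 15, SE 0.18, edgeR adjusted p = 0.000515), Trib3 (-0.95, SE 0.21, edgeR adjusted p = 0.0125) and Atf5 (-0.89, SE 0.19, edgeR adjusted p = 0.0106), beside 1.67% of all genes tested that were called in that direction. All 9 slopes were under 0, with a median of -0.48 beside -0.01 over all genes tested. Of the 9, 8 had an unadjusted p under 0.05, beside 2975 of the 15828 genes tested. In AMPK KO none of the 9 was called by edgeR, beside 0.107% of all genes in either direction, and 1 of the 9 (Atf3) and 1761 of all genes tested had an unadjusted p under 0.05. Libraries of a passage may share a culture, so that there may be 4 independent passages per genotype and these p-values may be too small.

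At passage 12 of WT the level was the highest of the 4 passages in 21 of 27 sets of gene and treatment, and it was never the lowest. The 9 genes were read in the same libraries, so these sets are not separate observations. The share over all genes was not computed. Against the later passages 6 members were higher at passage 12, beside 3.15% of all genes tested called higher, namely Stc2 (0.93), Trib3 (0.92), Atf5 (0.83), Nupr1 (0.55), Asns (0.47) and Chac1 (0.42), with edgeR adjusted p between 0.000155 and 0.00777. All 9 differences were above 0. Stc2 with DMSO went from 10.7 CPM at passage 12 to 6.95, 4.25 and 4.21 CPM, and with MK-8722 from 13.6 CPM to 9.54, 7.45 and 5.89 CPM. Atf5 dropped from 332 CPM at passage 12 to 197, 150.1 and 149 CPM with DMSO, and with torin1 it went from 39.0 CPM to 38.6, 35.5 and 35.7 CPM. A step at passage 12 was not tested against a steady fall, and Stc2 with MK-8722 was lower at each later passage.

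At passage 16, the earliest of AMPK KO, Atf5 was the 1 member called higher (0.43, edgeR adjusted p = 0.0463), beside 1.74% of all genes tested called higher, and it was lost without any one of 8 of the 12 libraries (edgeR adjusted p up to 0.368). Whether the earliest passage differed more in WT was not tested. In AMPK KO, passage 18 held the highest level in 16 of 27 sets and passage 17 the lowest in 16 of 27. These sets share libraries too, and the share over all genes was not computed. At passage 17 Ddit3 lay 0.42 and Trib3 0.34 under the mean of their treatment groups on the log2 scale, and at passage 18 they lay 0.28 and 0.27 above it.

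Among the WT results, the slopes of Trib3 and Atf5 were no longer called without WT MK-8722 replicate 2 or without WT DMSO replicate 4 (edgeR adjusted p 0.0928 to 0.136), both of passage 12. At the earliest passage, the calls of Chac1 and Nupr1 were lost without WT MK-8722 replicate 2 (edgeR adjusted p 0.211 and 0.0519).

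**Figure D4:**
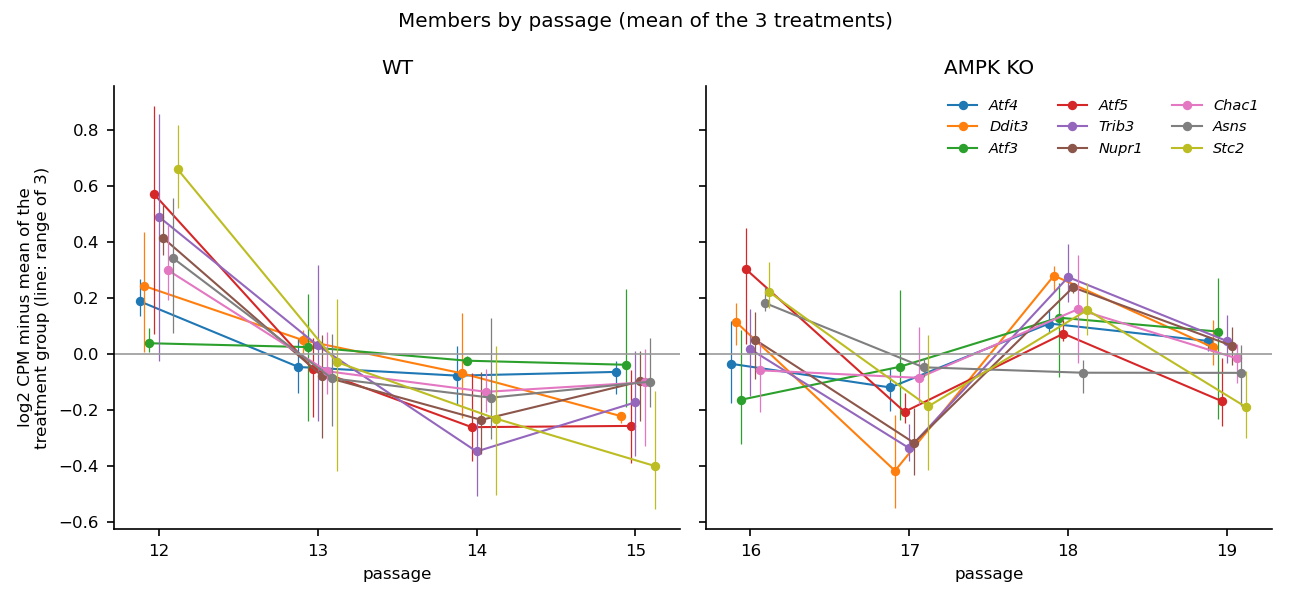
Mean deviation of log2 CPM from the mean of the treatment group at each passage, averaged over the 3 treatments, with the range of the 3 as a line, WT on the left and AMPK KO on the right. In WT all 9 genes lie above 0 at passage 12, up to 0.66 for Stc2, and in AMPK KO Ddit3 and Trib3 lie lowest at passage 17 and highest at passage 18.

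Other genes of the pathway were taken as 4 lists outside the 9 members. The list of 26 ATF4 target genes (amino acid synthesis, transport and tRNA charging among them, 25 tested) fell in 24 genes with torin1 in WT and in 25 in AMPK KO, with medians of -1.81 and -1.98, beside the 21.1% and 17.6% of all genes called lower. Slc7a11, the cystine transporter, went from 13.0 to 40.8 CPM to 0.145 to 0.413 CPM in WT, a log2 fold change of -6.28 (edgeR adjusted p = 2.37e-09), below that of Trib3. Ddit4, an MTOR regulator induced by stress, fell by 4.31 in WT and 2.87 in AMPK KO on the log2 scale. With MK-8722 5 of the 25 fell in WT, beside 5.66% of all genes called lower, Ddit4 (-0.94, edgeR adjusted p = 1.42e-06) and Sesn2 (-0.60, edgeR adjusted p = 0.000700) the most. None was called in AMPK KO by edgeR, beside 0.866% of all genes called higher. There 24 of 25 values were above 0 with a median of 0.31, and DESeq2 called 4 higher. An unadjusted p under 0.05 was reached by 15 of the 25, beside 2610 of the 15828 genes tested. The interaction with MK-8722 was above 0 in all 25 and called in 11, beside 5.12% of all genes called in that direction. Among the 9 members it was above 0 in 8.

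The list of 18 endoplasmic reticulum genes of the ATF6 and XBP1 branches, chaperones among them, is set beside the members without a test of the difference. With torin1 16 fell in WT, such as Hspa5, the chaperone BiP (-1.98), and Herpud1 (-2.15), beside 21.1% of all genes called lower. In AMPK KO 12 fell and 2 rose, Dnajb9 (0.32) and Ero1lb (0.42), beside 17.6% of all genes called lower and 25.9% called higher. With MK-8722 2 rose and 1 fell in WT, near the 10.0% and 5.66% of all genes called higher and lower. In AMPK KO 0 were called by edgeR (median -0.03, 1 called lower by DESeq2). There 3 of the 18 had an unadjusted p under 0.05, beside 2610 of the 15828 genes tested. Between genotypes 16 of the 18 were lower in AMPK KO with DMSO, beside 26.0% of all genes called lower, Ero1lb (-1.64) and Pdia6 (-1.34) the most. The interaction with torin1 was called above 0 in 16 of 18, beside 4.15% of all genes, whereas it was called in 1 member, below 0.

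Among 20 bZIP partners 11 fell and 2 rose with torin1 in WT and 10 fell and 5 rose in AMPK KO, 13 and 15 of 20, beside 47.6% and 43.5% of all genes tested called in either direction. Jdp2, a bZIP factor that can repress AP-1, and Xbp1, the splicing-activated factor of the endoplasmic reticulum response, fell the most in WT among those with a mean of at least 5 CPM (-2.11 and -1.39), and Cebpd (1.45) and Atf7 (0.44) were the 2 that rose there. With MK-8722 Atf6, a membrane-bound stress sensor, rose in WT (0.75, edgeR adjusted p = 2.65e-08) and in AMPK KO (0.38, edgeR adjusted p = 0.00477). In AMPK KO it was the 1 partner called by edgeR (2 by DESeq2), beside 0.866% of all genes called higher. In WT Maff rose too (0.71), while Jdp2 (-0.49) and Nfe2l2, the oxidative stress factor NRF2 (-0.36), fell. The WT calls, 2 higher and 2 lower of the 20, stand beside 10.0% and 5.66% of all genes called higher and lower.

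The 18 genes of the eIF2 module are the upstream part of the pathway. They encode kinases and phosphatase subunits of eIF2, subunits of eIF2 itself and of the factor eIF2B, and their regulators. With torin1 1 rose and 3 fell in WT, and 2 rose and 4 fell in AMPK KO. These are smaller shares of the 18 than the 47.6% and 43.5% of all genes called in either direction. Ppp1r15b, the constitutive phosphatase subunit, fell by 1.08 in WT and 0.66 in AMPK KO, and Eif2s2, the beta subunit of eIF2, by 0.87 and 0.86 on the log2 scale. With MK-8722 2 of the 18 rose in WT, near the 10.0% of all genes tested that were called higher. They were Impact, an inhibitor of the kinase GCN2 (1.18, from 39.9 to 44.96 CPM to 86.0 to 109 CPM), and Ppp1r15a, the stress-induced phosphatase subunit (0.43, edgeR adjusted p = 0.000501). None of the 18 was called with MK-8722 in AMPK KO by edgeR or DESeq2, with values between -0.17 and 0.25. An unadjusted p under 0.05 was reached there by 7, beside 2610 of the 15828 genes tested.

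**Figure D5:**
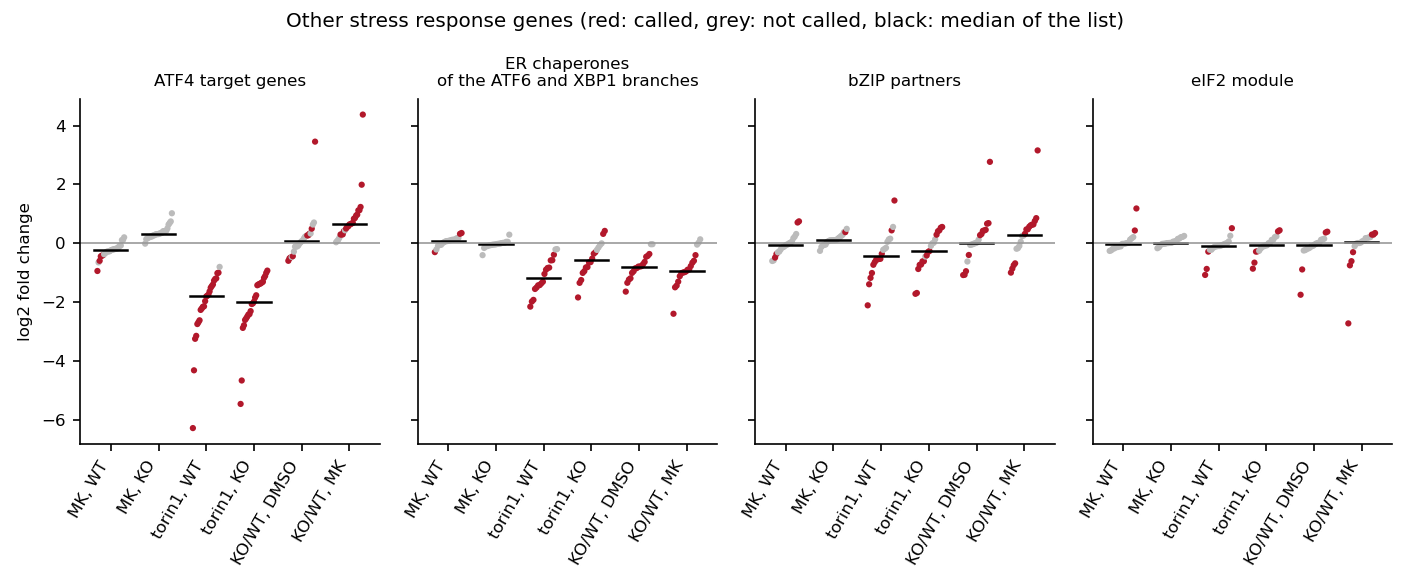
Log2 fold changes of the genes of 4 lists outside the 9 members in 6 comparisons, MK standing for MK-8722 and KO for AMPK KO, with 1 point per gene tested. Red points passed the test, grey points did not, and black lines are medians, which for the ATF4 target genes lie at -1.81 and -1.98 with torin1 and at -0.24 and 0.31 with MK-8722 in WT and AMPK KO.

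The genes whose log2 CPM followed a member most closely over the 24 libraries were sought among 10123 genes with a mean of at least 5 CPM. For Atf4 they were Slc7a1 (Pearson's r = 0.989), Yars (0.987) and Nr2c2ap (0.986), and for Trib3 Mthfd2 (0.994), Slc7a1 (0.992) and Slc6a9 (0.987). Stc2 was followed most closely by Mthfd2 (0.972), Nfe2l1 (0.971) and Clic4 (0.968). Among the 36 pairs of members r lay between 0.467, for Ddit3 and Atf5, and 0.982, with a median of 0.932. With group means removed r lay between -0.21 and 0.899, with a median of 0.652. These values describe libraries that share treatments and passages.

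The transcript tables gave a further view of the members. Chac1 had 1 transcript in the table. In the others, 1 transcript carried most of the gene's estimated counts, with group means of 94.6% to 96.0% in Trib3, 90.5% to 93.6% in Atf4, 82.0% to 87.0% in Asns and 80.5% to 84.5% in Ddit3. The leading transcript was the same in all 6 groups.

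Several members share bases with a neighbouring gene, and whether counting used strand is not given in the sources used here. Atf5 (chromosome 7, 44812256 to 44816658, GRCm38) overlaps Nup62 by 571 bases and Il4i1 by 272 bases, and Ddit3 (chromosome 10, 127290774 to 127296288) overlaps Mars by 68 and Gm4189 by 15 bases, all on the opposite strand, and Atf3 (chromosome 1, 191170296 to 191218039) encloses Gm24748 on the opposite strand. A further row of the table, ENSMUSG00000116429, also carries the name Ddit3 and lies within the locus on the same strand. It held at most 5.23 counts in any library and was above 0 in 3, all with MK-8722, against 179 to 1689 counts in the row used here. Values of Atf5 and Ddit3 are uncertain to the extent that reads were split among such genes.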

How the data were processed

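Poly(A) RNA-seq was available for 24 libraries of WT and AMPK KO MEFs, 4 for each genotype with DMSO, MK-8722 or torin1. The authors deposited gene and transcript tables of estimated counts made with STAR and Salmon on GRCm38, per their processing notes, and the study's methods name the nf-core/rnaseq workflow with molecular identifiers. TPM and effective lengths were deposited by the authors beside the estimated counts, and versions of the aligner and counter were not given in the sources used here. Groups were taken from the sample labels, columns were matched to samples by title, and 0 columns of other samples were present.

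Before testing, the estimates were rounded to integers, filterByExpr dropped weakly expressed genes, TMM factors scaled the libraries, and 6 group means were fitted to all 24 libraries with the quasi-likelihood test of edgeR 4.0.16 in R 4.3.3 (limma 3.58.1). P-values were two-sided and adjusted by Benjamini-Hochberg over 15828 genes, which held 99.956% of all counts. Calls needed an adjusted p below 0.05 together with a 1.2-fold or larger difference. Standard errors were derived from each log2 fold change and its F statistic. The 95% intervals used a normal quantile in place of a t quantile, so they may be somewhat too narrow. Log2 CPM used a prior count of 2. Passage slopes were fitted within genotype with treatment as a term and scaled to a span of 3 passages. Total estimated counts were 26900240 to 34192685 per library, and the smallest values of members rest on 9 to 20 counts, where counting error is large.

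The members, the lists and the comparisons were chosen with earlier results of these data known. Beside the 9 members, genes were named by a rule: per list and comparison, up to 2 called genes with the largest rise and up to 2 with the largest fall among those with a mean of at least 5 CPM, and the 3 genes with the highest correlation to Atf4, Ddit3, Trib3 and Stc2, of which those of Ddit3 are not reported here. The alternatives were RLE factors, library size alone, no filter on low counts, an offset for transcript length, replicate number or passage as a block, another threshold, only the groups compared, DESeq2 1.42.0, and each library left out in turn. A fit without passages 12 and 16 was chosen later, with the data already seen. The fits were tested on simulated counts with known changes. These counts had a spread common to all genes and independent libraries. They therefore do not cover spreads that differ between genes or libraries that share a passage.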

Additional observations from a re-analysis of the deposited data

Results flagged for a closer look

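Among the 54 sets of 1 gene in 1 group, 2 held a library far from the other 3 by Dixon's test, a rule that chance meets in about 1 of 20 groups. Trib3 was at 114 CPM in WT DMSO replicate 4 and at 61.7 to 65.0 CPM in the others of that group. Atf5 was at 275 CPM in WT MK-8722 replicate 2 and at 118 to 127 CPM in the others. Both libraries are of passage 12.

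For 4 genes the log2 response to MK-8722 was higher in AMPK KO than in WT by the interaction test of edgeR. The differences were 0.47 for Atf4, 0.78 for Chac1, 0.56 for Atf3 and 0.64 for Asns. For Chac1 the response to torin1 was also lower in AMPK KO than in WT, with a difference of -1.19.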

How the results depend on the processing

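Of 2565 values of single members recomputed under the alternatives, 2355 kept their direction and their side of the threshold, 75 lost a call, 88 gained one and 47 changed sign. No value that changed sign was called by edgeR as reported. The 9 falls with torin1, against DMSO or MK-8722 and in either genotype, were called under every alternative run. The causes of the other changes were not tested.

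The interaction of torin1 and genotype for Ddit3 became -0.0048 with RLE factors, -0.018 with library size alone, -0.023 with the length offset, -0.0053 with passage as a block, -0.054 with the compared groups alone, -0.0041 with DESeq2 and -0.25 without the earliest passages. Atf3 with MK-8722 in WT became 0.0049 with library size alone, 0.014 with the length offset and 0.00015 with the replicate block, and between genotypes with MK-8722 it became -0.039 with the length offset. With DMSO, the genotype difference of Trib3 became 0.076 with library size alone and 0.25 without the earliest passages, and that of Nupr1 0.048 and 0.067. Trib3 at passage 16 became 0.040 with library size alone. With 1 library left out, the log2 values that changed sign ranged for Atf3 from -0.016 to 0.15 between genotypes with MK-8722, from -0.092 to 0.065 with MK-8722 in WT and from -0.21 to 0.030 in the WT slope. They ranged for Trib3 from -0.53 to 0.12 with MK-8722 in WT, from -0.21 to 0.19 between genotypes with DMSO and from -0.19 to 0.17 at passage 16. For Nupr1 the ranges were -0.22 to 0.028 between genotypes with DMSO, -0.18 to 0.076 in the torin1 interaction and -0.030 to 0.14 at passage 16, for Ddit3 -0.15 to 0.10 in the torin1 interaction, and for Atf4 -0.15 to 0.039 at passage 16.

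The number of members called moved under some settings. Without the filter on low counts 7 had a WT slope and 2 differed at passage 16. With MK-8722 in AMPK KO 2 were called with the length offset. With passage as a block the calls were 5 with MK-8722 in WT, 8 in AMPK KO, 9 in the MK-8722 interaction and 2 in the torin1 interaction. At a fold of at least 1.5 they were 2 with MK-8722 in AMPK KO, 1 and 3 between genotypes with DMSO and torin1, and 2 in the MK-8722 interaction, which was also 2 with the compared groups alone. Without the earliest passages 4 were called with MK-8722 in WT and 7 in the interaction. With 1 library left out the calls ranged from 1 to 5 with MK-8722 in WT, 2 to 5 in AMPK KO, 2 to 8 in the interaction (2 without AMPK KO DMSO replicate 2, WT MK-8722 replicate 3 or 4, or AMPK KO MK-8722 replicate 4), 3 to 5, 6 to 8 and 4 to 5 between genotypes with DMSO, MK-8722 and torin1, 1 to 6 for the WT slope, 4 to 8 at passage 12 and 0 to 1 at passage 16.

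Replicate numbers in the labels do not pair the libraries: 2 of 12 same-numbered pairs of either genotype correlated above 0.1, and 4 of 12 WT and 2 of 12 AMPK KO libraries correlated best with their own number. For passages these were 6 and 9 of 12 pairs and 9 of 12 libraries in each genotype, a hint from the data. With the replicate block Asns lost its call between genotypes with DMSO (-0.35, edgeR adjusted p = 0.0623) and in the MK-8722 interaction (0.64, edgeR adjusted p = 0.0684), and 2417 genes were called with MK-8722 in WT against 2483 and 193 in AMPK KO against 247.

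Over all genes, calls with MK-8722 in AMPK KO were 729 with passage as a block and 137 with the length offset against 247, and in the torin1 interaction 1861 with passage as a block against 1119. Without the filter 48 genes against 17 had an AMPK KO slope and 684 against 440 differed at passage 16. By adjusted p alone, 4447 genes were called with MK-8722 in WT and 423 in AMPK KO. At a fold of at least 1.5 the calls were 833 and 64 with MK-8722, 3855 against 7540 and 3146 against 6879 with torin1, 5541 against 9007, 6003 against 9316 and 5309 against 8649 between genotypes, 3551 against 7229 and 3415 against 7202 between drugs, and 681 against 2023 and 305 against 1119 in the interactions. Library size alone moved the share of calls that were higher from 55.5% to 45.1% with MK-8722 in AMPK KO, from 55.8% to 67.5% with torin1 in WT, from 54.3% to 67.4% between genotypes with DMSO and from 56.7% to 66.8% with torin1, from 53.5% to 65.3% and from 58.8% to 69.5% between drugs, from 58.7% to 42.1% in the torin1 interaction (48.5% with RLE, 48.6% with DESeq2), from 37.7% to 50.9% for the WT slope, from 29.4% to 9.52% for the AMPK KO slope and from 62.7% to 83.1% at passage 16. It moved the median of all genes between genotypes with DMSO from 0.0155 to 0.155 on the log2 scale.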

Other observations

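Between genotypes, ATF4 target genes outside the 9 members differed in both directions with DMSO, 5 higher and 4 lower in AMPK KO of 25 tested, where 56.9% of all genes were called in either direction. The amino acid transporter genes Slc38a2 (0.50, edgeR adjusted p = 1.61e-07) and Slc3a2 (0.33, edgeR adjusted p = 0.0154) were higher, and Pycr1, of proline synthesis (-0.59, edgeR adjusted p = 0.000106), and Ddit4 (-0.51, edgeR adjusted p = 0.000315) were lower. With MK-8722 20 of the 25 were higher, beside 31.4% of all genes called higher, and all 25 values lay above 0, with a median of 0.64. In WT 16 of the 25 fell with passage (median -0.47), beside 1.67% of all genes called, and 18 were higher at passage 12 (median 0.42), beside 3.15%.

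Of 20 bZIP partners 12 were called in AMPK KO with DMSO, a share near the 56.9% of all genes, such as Maff (0.68) and Cebpg (0.67) on one side and Fosl2 (-1.08) and Jun (-1.07) on the other. In the eIF2 module 2 were higher, Ppp1r15a (0.39) and Oma1, a mitochondrial stress protease (0.37), and 2 were lower, 4 of 18 and below that share. The lower ones were Impact, at 12.2 to 13.7 CPM in AMPK KO and 39.9 to 44.96 CPM in WT (-1.75, edgeR adjusted p = 3.21e-14), and Eif2s3x, a subunit of eIF2 (-0.89, edgeR adjusted p = 3.75e-15).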
